A study of Drosophila melanogaster with 8 samples.

Results

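Narrow control-only autosomal regions are short stretches of chromatin at which phosphorylated p38 (P-p38) was called in unstressed Drosophila S2 cells and not after H2O2. They were chosen by merging the peaks of 4 ChIP-seq libraries wherever they overlapped by 1 bp or more. A region was kept when it lay on 2L, 2R, 3L, 3R or 4, had a peak in both control lists and none in either H2O2 list, and was 1000 bp wide or less. This gave 375 regions, 3.16% of 11865 autosomal regions and part of 12632 regions on these arms and X. Among the 11075 autosomal regions of 1000 bp or less they were 3.39%, and the reverse class, called in both H2O2 lists and neither control list, was 7.18%. The calls and the width chose these regions, so their presence in control and absence after H2O2 is not a result and is given without a test.

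S2 is a cultured embryonic Drosophila line with haemocyte-like features, here wild type and grown at 25 °C. H2O2 at 10 mM was applied for 30 min in the treated group, and control cells received an equal volume of medium. Each group had 2 P-p38 immunoprecipitations, each with its own peak list, and the 4 input samples, 2 per group, were not analysed here. Nothing in the labels says that replicates were separate cultures, so a p-value here reflects the spread between these libraries alone, which may be technical. Peak lists hold no expression values, so the S2 identity was not checked on RNA.

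p38 is a stress-activated MAP kinase that becomes active when an upstream MAP kinase kinase phosphorylates it, and flies carry the genes p38a, p38b and p38c. Activated p38 phosphorylates cytoplasmic substrates and, in the nucleus, transcription factors and chromatin proteins. ChIP of a kinase reports DNA that crosslinks near it, through proteins that it contacts. None of p38a, p38b and p38c held a narrow control-only region. The single peak in any of them was 1 summit in p38a in control replicate 1.

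The lists held 6212 and 3839 autosomal peaks in H2O2 replicates 1 and 2, and 3918 and 2709 in control replicates 1 and 2. Peaks of 1000 bp or less made up 97.0% and 97.5% of the H2O2 lists and 88.9% and 87.8% of the control lists. The narrow control-only regions took up 390 of 3482 such peaks (11.2%) in control replicate 1 and 389 of 2378 (16.4%) in control replicate 2. Read depth is unknown. Wilson 95% intervals below cover counting error in shares of regions only.

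Most of the 375 regions were modest peaks, and the control replicates ranked them differently. Strength is given as a rank, the percentile that a region's fold enrichment (the authors' value) takes in its control list, where 100 is the highest fold on the 6 arms. The median percentile was 50.6 in control replicate 1 (range 0.927 to 98.2) and 45.3 in control replicate 2 (range 0.167 to 97.8). The authors' fold enrichment had a median of 1.64 (range 1.31 to 2.74) in replicate 1 and 1.61 (range 1.26 to 3.73) in replicate 2. Only 98 regions (26.1%, Wilson interval 21.9 to 30.8) stood at or above percentile 50 in both lists. Across the 375 regions Spearman's rho between the replicates' percentiles was 0.283, a description of regions that share the same pair of libraries. The caller's q was 0.05 or less in both libraries for 281 regions (74.9%) and 1e-05 or less in both for 22 (5.87%).

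**Figure D1:**
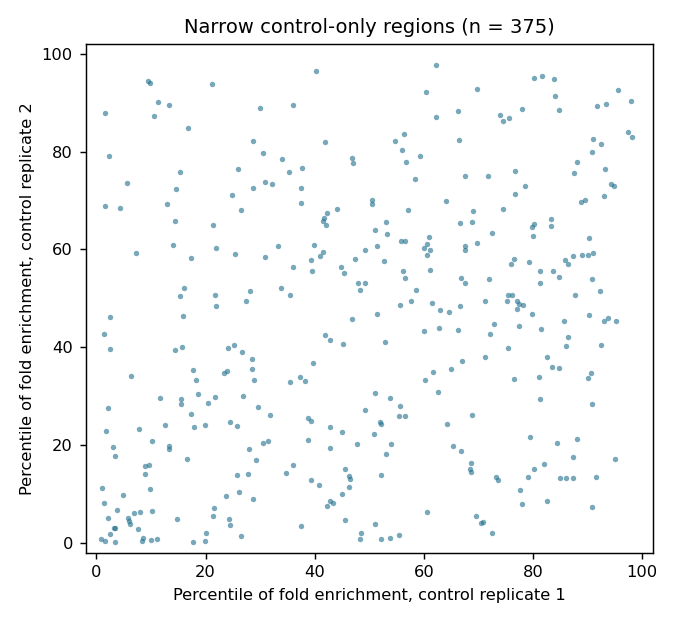
Percentile of the authors' fold enrichment in control replicate 1 (x axis) and control replicate 2 (y axis) for each of the 375 narrow control-only regions, 1 point per region. The points fill most of the square, with medians of 50.6 and 45.3, and a minority lie in the upper right.

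The regions were compact. Merged width had a median of 561 bp (lowest 212, highest 995), and 347 regions (92.5%) held exactly 1 peak of each control library. The strongest summits of the libraries lay a median of 125 bp apart, and in 159 regions (42.4%) a pair of summits lay within 100 bp. Close to the width limit, regions in ush and Tet were 991 and 995 bp wide and were kept, while regions in Ten-m and crol were 1006 and 1015 bp wide and were not. The lower of the control percentiles was 40.5 in ush and 55.6 in Tet, against 64.3 in Ten-m and 80.5 in crol.

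The strongest region, ranked by the lower of its control percentiles, lay in CG11050 (2L:6612653-6613385 of dm6), at percentiles 95.7 and 92.6 of control replicates 1 and 2. The next lay in MESK2 (2R:21507318-21508020, 98.0 and 90.4) and in lost (3R:4403074-4403863, 93.3 and 89.7). The fourth (2R:14573622-14574472, 91.7 and 89.3) had its summits where ttv, a heparan sulphate polymerase gene, overlaps the lamin gene LamC. Further members of the first 10 lay in spen, which encodes a large RNA-binding nuclear protein (2L:160656-161568, 83.9 and 94.9), and Chro, the gene of the chromosomal protein Chromator (3L:22878234-22879011, 98.2 and 83.1). Ras85D, the Ras GTPase upstream of the ERK cascade, completed the genes among them (3R:9512394-9513278, 91.1 and 82.6). Its summits lay 50 bp apart, about 151 bp inside one end of the 2507 bp gene.

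The other 3 of the first 10 lay in no protein-coding gene. One (2L:21554168-21554399, 84.9 and 88.5) lay 12550 bp from the nearest protein-coding gene end, that of a histone H3 gene copy, His3:CG33866. Reads from the repeated histone genes may not be separable. The only region on chromosome 4 (4:180993-181828, 84.1 and 91.4) lay in lncRNA:CR46488, and one on 3L (3L:7915470-7916197, 97.5 and 84.1) in lncRNA:CR32368. These 10 stood high in both control lists, unlike the set as a whole.

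The 375 regions lay almost entirely inside protein-coding genes and mostly away from their ends. A summit fell inside such a gene for 355 regions (94.7%, Wilson interval 91.9 to 96.5), against 59.2% (55.8 to 62.6) of the 795 narrow H2O2-only regions and 72.6% (71.7 to 73.4) of the 10700 other autosomal regions of 1000 bp or less, which include the H2O2-only ones. Of the 241 broad control-only regions, wider than 1000 bp, 97.5% (94.7 to 98.9) had one. A summit lay within 500 bp of either end of a protein-coding gene in 27.5% (23.2 to 32.2) of the narrow control-only regions, against 10.9% (8.96 to 13.3) of narrow H2O2-only, 55.6% (49.3 to 61.7) of broad control-only and 14.6% (13.9 to 15.3) of the other narrow regions. Position was counted from any summit of a region, so a region with more peaks had more chances, and the shares were not tested against each other because the same calls define the classes. In all 257 regions (68.5%) lay inside a gene and beyond 500 bp of any end. The median distance from the nearest end of the host gene was 2330.5 bp. With the region's midpoint in place of its summits the share at gene ends was 22.1%. Without control replicate 2, where replicate 1 makes the call alone, there were 2482 such regions, and without control replicate 1 there were 1804, so the set rests on both lists.

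**Figure D2:**
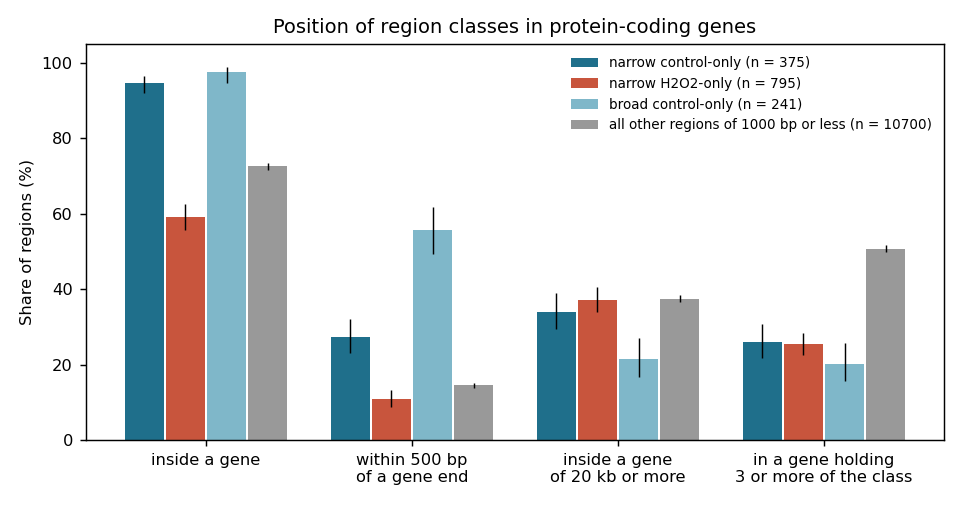
Share of regions (y axis, %) with a summit in each gene position, for narrow control-only, narrow H2O2-only and broad control-only regions and for all other autosomal regions of 1000 bp or less. Bars are shares and lines are Wilson 95% intervals. Narrow control-only regions stand at 94.7% inside genes, against 59.2% of narrow H2O2-only regions.

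The libraries can be compared over all their narrow autosomal peaks, whether shared or not. A summit lay inside a protein-coding gene for 63.8% and 70.6% of such peaks in H2O2 replicates 1 and 2, against 85.2% and 89.9% in control replicates 1 and 2. The groups did not overlap, with means of 67.2% ± 4.75 in H2O2 and 87.6% ± 3.33 in control (SD, n = 2 each), a difference of -20.4 percentage points (exact two-sided permutation p = 0.333). This is the smallest p that 2 against 2 libraries allow. Within 500 bp of a gene end lay 8.68% and 12.5% of narrow peaks in H2O2 replicates 1 and 2, against 17.3% and 27.8% in control replicates 1 and 2, again with no overlap. The difference was -11.99 points (exact permutation p = 0.333), and -6.75 points without control replicate 2. None of these comparisons can pass 0.05, and the narrow control-only regions contribute to the control shares.

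**Figure D3:**
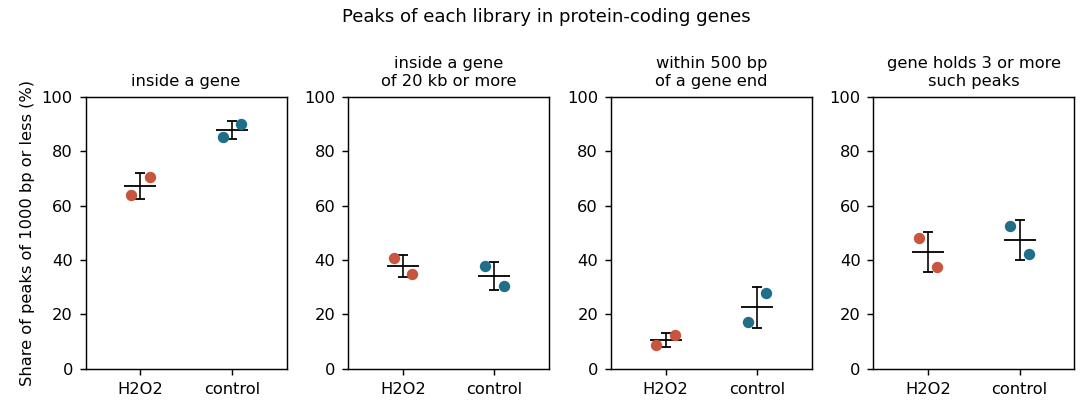
Share of each library's autosomal peaks of 1000 bp or less (y axis, %) by position in protein-coding genes. Points are the H2O2 and control libraries, 2 per group, with the mean and SD. H2O2 libraries lie below control libraries for peaks inside genes and at gene ends, and the groups overlap in the other panels.

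Counted over all regions, inside genes or not, the share in long genes was near that of narrow regions in general. Among regions inside a gene it was lower, at 128 of 355, against 4011 of 7767 other narrow regions. The counts were 296 of 471 for narrow H2O2-only and 52 of 235 for broad control-only regions. A summit in a gene of 20 kb or more was found for 128 regions (34.1%, 29.5 to 39.1), against 37.2% (33.9 to 40.6) of narrow H2O2-only, 21.6% (16.9 to 27.2) of broad control-only and 37.5% (36.6 to 38.4) of the other narrow regions. Such genes were 814 of 11725 autosomal protein-coding genes and made up 53.9% of their summed length, and 62 of them (7.62%) held a region. Per Mb of gene sequence the narrow control-only regions numbered 7.09 in genes under 5 kb, 6.50 at 5 to 10 kb, 7.06 at 10 to 20 kb, 3.41 at 20 to 50 kb and 2.75 at 50 kb or more. Narrow H2O2-only regions numbered 6.18 per Mb in genes under 5 kb and 7.96 in those of 50 kb or more. Broad control-only regions numbered 8.84 and 1.19 per Mb in the same bins. The other narrow regions numbered 115.5, 124.3, 114.1, 94.4 and 100.0 per Mb from the shortest to the longest bin. Their density was thus also lower in genes of 20 kb or more, by a smaller fraction than for narrow control-only regions. Narrow control-only density was lowest in the longest genes, where that of narrow H2O2-only regions was highest, a description without a test.

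**Figure D4:**
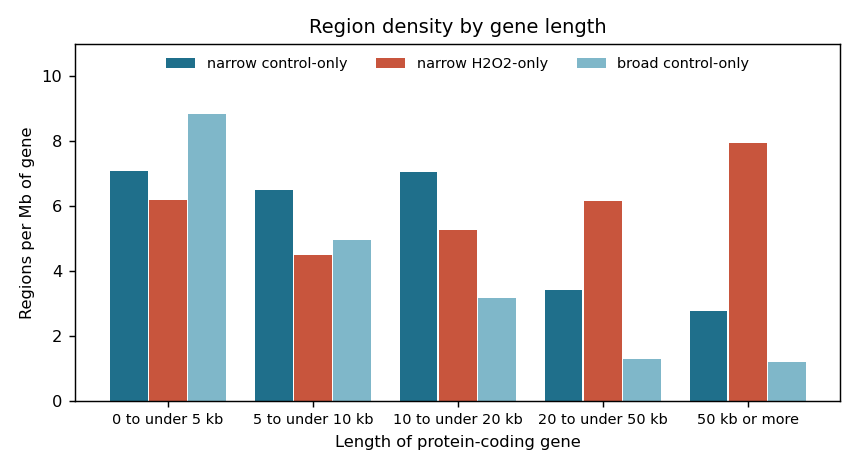
Regions per Mb of protein-coding gene (y axis) in 5 bins of gene length (x axis), for narrow control-only, narrow H2O2-only and broad control-only autosomal regions. Narrow control-only density is 7.09 per Mb in genes under 5 kb and 2.75 per Mb in genes of 50 kb or more.

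Library shares of narrow peaks in genes of 20 kb or more were 40.6% and 35.0% in H2O2 replicates 1 and 2, against 37.9% and 30.6% in control replicates 1 and 2. The groups overlapped (difference 3.57 points, exact permutation p = 0.667), and the difference was -0.051 points without control replicate 2. The host genes had a median length of 6753 bp, against 14096.5 bp for hosts of narrow H2O2-only regions, 2496 bp for hosts of broad control-only regions, 4930 bp for hosts of the other narrow regions and 2099 bp for all autosomal protein-coding genes.

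The regions lay in 267 protein-coding genes, 2.28% of the 11725 on the autosomes, against 2.58% for narrow H2O2-only and 1.85% for broad control-only regions. Of these genes 213 held 1 region, 32 held 2 and 22 held 3 or more, the last being 0.188% of autosomal protein-coding genes. Genes with 3 or more held 98 of the regions (26.1%), and 13 of the 22 were 20 kb or longer. The same share was 25.4% for narrow H2O2-only, 20.3% for broad control-only and 50.8% for the other narrow regions, each counted within its own class, and a larger class has more chances to reach 3. With lists of equal length that share was 17.5%, and it was 49.1% without control replicate 2. The share of narrow peaks in a gene with 3 or more narrow peaks of the same library was 48.1% and 37.6% in H2O2 replicates 1 and 2, against 52.4% and 42.1% in control replicates 1 and 2. These groups overlapped (difference -4.41 points, exact permutation p = 0.667), and the difference turned to 0.858 without H2O2 replicate 2 and 0.730 without control replicate 1.

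The gene with the most narrow control-only regions was pnt, which encodes an ETS transcription factor activated by ERK signalling. This 55.9 kb gene (3R:23290231-23346167) held 13 of them, with 52942 bp between the summits of the first and the last and a median spacing of 3605.75 bp. Their percentiles were between 1.48 and 66.8 in control replicate 1 and between 0.167 and 73.9 in control replicate 2. Over the whole gene H2O2 replicates 1 and 2 had 0 and 3 summits, against 34 and 26 in control replicates 1 and 2. Peaks covered 0% and 1.76% of pnt in H2O2 replicates 1 and 2, against 30.2% and 19.9% in control replicates 1 and 2. No region of pnt stood above 30.9 by the lower of its percentiles, and 2 broad control-only regions lay among them. In this gene and in those that follow, the region rule fixes the calls at the narrow control-only regions themselves. Whole-gene counts and coverage include these regions, so the rule tilts them towards control without fixing their direction.

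Frl, a formin gene whose product nucleates actin filaments, held 9 regions in 18.4 kb (3L:14053215-14071583), with a median spacing of 1245.5 bp. Frl had 0 summits in both H2O2 libraries, against 14 and 15 in control replicates 1 and 2. Control peaks covered 50.8% and 48.2% of the gene, in 9 narrow and 3 broad control-only regions. The control replicates thus covered similar shares of Frl.

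The gene heca (headcase), a 94.5 kb gene on 3R, held 8 regions at percentiles between 21.7 and 90.2 in control replicate 1 and between 38.1 and 82.3 in control replicate 2. It had 2 summits in each H2O2 library, against 20 and 12 in control replicates 1 and 2, and no broad control-only region. CG31145 held 6 regions in 63.9 kb of 3R, where H2O2 replicates 1 and 2 each had 18 summits, against 35 and 26 in control replicates 1 and 2. It held 6 regions called in all 4 libraries, so CG31145 was called in both treatments. These shared regions lay 17.2 to 39.9 kb from the left end of the gene. The narrow control-only regions lay on either side of them, at 1.17 and 11.6 kb and at 41.1 to 48.0 kb.

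Among genes with 3 or more regions the tightest run, by median spacing, lay in Hipk, the gene of the homeodomain-interacting protein kinase. Its 5 regions (38.04 kb gene on 3L) had a median spacing of 661.25 bp, with the closest pair 468 bp apart and the fifth region 6773.5 bp from its neighbour. Summits in Hipk numbered 0 and 6 in H2O2 replicates 1 and 2, against 14 and 11 in control replicates 1 and 2. Ten-m, a teneurin gene of 115 kb, also held 5 narrow regions, but these stood among 20 broad control-only regions. Peaks covered 1.17% and 2.89% of Ten-m in H2O2 replicates 1 and 2, against 75.7% and 61.2% in control replicates 1 and 2. Narrow regions were thus a minority of the control-only regions in Ten-m and the majority in Frl, heca and Hipk.

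A further 7 genes held 4 regions each. Hrb98DE, which encodes an hnRNP A1-like RNA-binding protein, was the shortest of them at 5.94 kb, and the summits of its first and last regions lay 2250 bp apart. Hrb98DE had 0 and 1 summits in H2O2 replicates 1 and 2, against 7 and 6 in control replicates 1 and 2, and peaks covered 53.4% and 84.3% of it in control. Sin3A, the gene of a histone deacetylase corepressor, had 0 summits in both H2O2 libraries, against 9 and 8 in control replicates 1 and 2. The first and last of its 4 regions had their summits (mean of both libraries) 5202.5 bp apart in this 17.7 kb gene.

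In InR, the insulin receptor gene of 49.1 kb, the summits of the first and last of 4 regions lay 35119 bp apart, with a median spacing of 14356.5 bp. InR had 0 and 1 summits in H2O2 replicates 1 and 2, against 11 and 7 in control replicates 1 and 2. The BTB-domain transcription factor genes psq and lola, both on 2R, held 4 regions each. psq had 0 and 1 summits in H2O2 replicates 1 and 2, against 6 and 7 in control replicates 1 and 2, and lola had 2 and 3, against 16 and 12. The F-BAR protein gene Cip4 had 1 summit in each H2O2 library, against 10 and 5 in control replicates 1 and 2. In ush, which encodes a cofactor of GATA factors in haemocytes, 5 and 4 summits in H2O2 replicates 1 and 2 stood against 15 and 17 in control replicates 1 and 2. One region at the end of ush had its other summit in the neighbouring gene lwr.

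**Figure D5:**
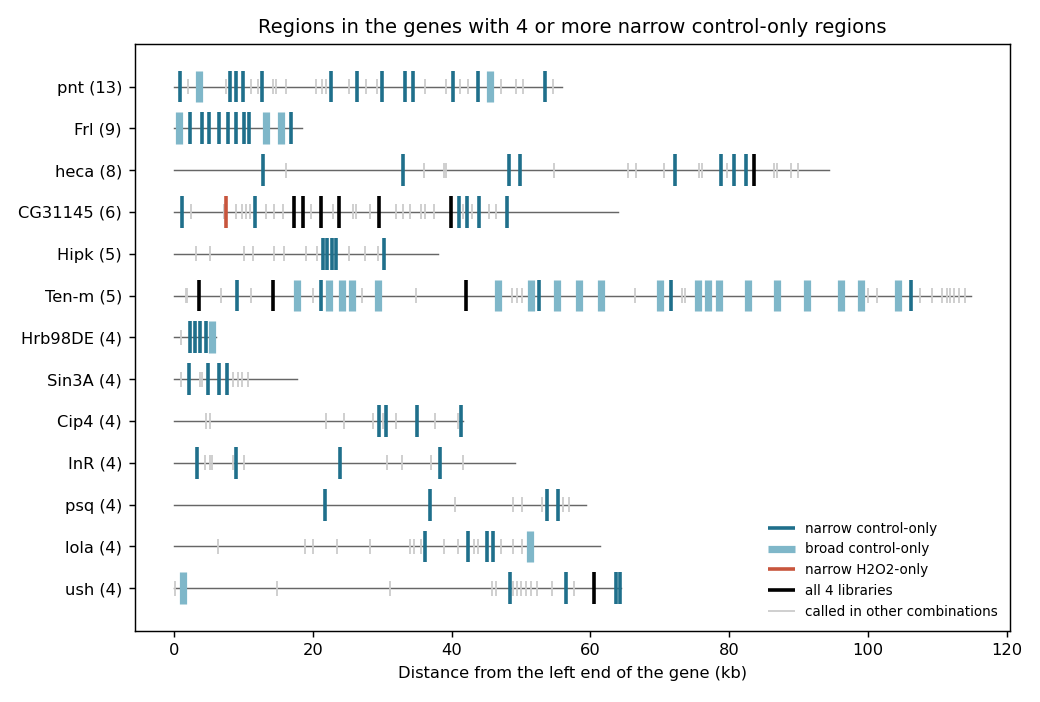
Position of regions in the 13 genes with 4 or more narrow control-only regions, as distance in kb from the left end of the gene (strand is not given); the number of such regions stands in brackets. Each bar is a region by class, drawn at its midpoint. pnt carries 13 narrow regions along its length, 4 of the 5 in Hipk and the 4 in Hrb98DE lie close together, and Ten-m is filled mainly by broad ones.

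Genes with 3 regions were glec, Pcf11, which encodes an mRNA 3′ end processing factor, mask, mbc, ena, l(3)80Fj, eIF4EHP, and CG46315 and CG6424, which share 1 interval and the same regions. No H2O2 summit lay in Pcf11, in mbc or in ena, the gene of an actin elongation factor. In mbc control peaks covered 83.3% and 32.9% of the gene, with 4 broad control-only regions beside the 3 narrow ones.

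Of the 267 host genes 170 (63.7%) had no summit of either H2O2 library anywhere in the gene, and 42 (15.7%) had summits of both. No H2O2 summit lay in 83.1% of all autosomal protein-coding genes, and in 48.4% of the 775 with a summit of both control libraries. A broad control-only region lay in 44 (16.5%), a region of all 4 libraries in 19 and a narrow H2O2-only region in 6. The regions chose these genes, so the counts describe them and were not tested.

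The narrow control-only regions seldom stood alone in the control lists. The nearest other control peak lay a median of 407 bp away, and 267 regions (71.2%, 66.4 to 75.55) had one within 1000 bp. The nearest H2O2 peak lay a median of 5532 bp away, with one within 1000 bp of 54 regions (14.4%, 11.2 to 18.3). Narrow H2O2-only regions had a median of 581 bp to the nearest other H2O2 peak and 6723 bp to the nearest control peak. Nearness to peaks of the same treatment was thus seen in both classes. When peaks up to 200 bp apart were merged, 318 narrow control-only regions were left.

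Gene classes were compared by how many of their autosomal genes held a narrow control-only region, beside the 2.28% of all autosomal protein-coding genes. In 19 of 23 lists the share was above that figure and in 4 below it. No test was made of any list. Lists differ in gene length, so regions per Mb of gene are given beside the counts, where all genes had 4.84.

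Signalling genes held regions along several steps of 2 pathways. Of 24 insulin and TOR genes 5 held a region (20.8%, 9.24 to 40.5; 29.9 per Mb): InR, the catalytic PI3-kinase gene Pi3K92E, the downstream kinase genes Pdk1 and S6k, and Lk6, an eIF4E kinase gene. No gene of this list held a broad control-only or a narrow H2O2-only region, against 1.85% and 2.58% of all autosomal protein-coding genes. In a list of 24 genes a count of 0 is near those shares. Pi3K92E stood at percentiles 53.2 and 63.1 of control replicates 1 and 2 (3R:20634104-20634521), and Pdk1 at 41.8 and 42.6 (3L:143346-143932). Of 33 p38, JNK and ERK genes 4 held a region (12.1%, 4.82 to 27.3; 39.8 per Mb), 13 of the 17 regions being in pnt. The other genes were Ras85D, the ERK gene rl and aop, which encodes an ETS repressor opposed to pnt. Regions in rl stood at percentiles 60.3 and 33.2 (2R:1081740-1082272) and 34.8 and 14.4 (2R:1089253-1089691), and that in aop at 35.4 and 75.8 (2L:2157942-2158794). All 4 genes of this list with a region act in the Ras and ERK branch, whose share of the list was not counted. In this list 2 genes, rl among them, held a narrow H2O2-only region. Summits in rl numbered 7 and 2 in H2O2 replicates 1 and 2, against 8 and 6 in control replicates 1 and 2.

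Of 26 early response and stress transcription factor genes 4 held a region (15.4%, 6.15 to 33.5; 13.5 per Mb): lola, the zinc finger gene crol, the Krüppel-like factor gene luna, and cnc, which encodes the fly Nrf2 relative. The cnc region stood at percentiles 42.2 and 7.46 of control replicates 1 and 2 (3R:23193114-23193783). Of 59 chromatin regulators 5 held a region (8.47%, 3.67 to 18.4; 20.5 per Mb), among them psq, Sin3A and dom, a chromatin-remodelling ATPase gene with 2 regions. The first region of dom stood at percentiles 71.8 and 74.97 (2R:21335880-21336375). Of 28 ecdysone response genes only Eip75B, a nuclear receptor gene, held one (1.18 per Mb).

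Among RNA-binding and splicing genes 9 of 52 held a region (17.3%, 9.38 to 29.7; 6.53 per Mb). Hrb98DE was followed by the translational repressor genes brat and pum with 2 regions each. A narrow H2O2-only region lay in 4 RNA-binding and splicing genes, and in 0 translation factor and 0 ribosomal protein genes. Of all autosomal protein-coding genes 2.58% held one. In lists of 47 and 72 genes a count of 0 is not far from that share. Of 47 translation factor genes 5 held a narrow control-only region (10.6%, 4.63 to 22.6; 30.8 per Mb), led by eIF4EHP, a cap-binding repressor gene, and eIF3e. Of 72 ribosomal protein genes 3 held a narrow control-only region (4.17%, 1.43 to 11.5; 29.9 per Mb), against 57 with a broad one. These were RpS27 (81.7 and 95.4 in control replicates 1 and 2; 3R:25246869-25247498), RpL34b (80.2 and 95.1; 3R:9400210-9401196) and RpS26 (56.6 and 61.7; 2L:18441461-18441852). More ribosomal protein genes thus held a control-only region wider than the limit than a narrow one.

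Haemocyte genes held a region in 6 of 32 (18.8%, 8.89 to 35.3; 25.4 per Mb). They were ush, the clotting protein gene Hml, the peroxidasin gene Pxn, the transcription factor gene zfh1, the engulfment receptor gene drpr, and nolo. Hml carried 2 neighbouring regions, at percentiles 74.5 and 68.2 (3L:13853033-13853455) and 67.6 and 53.1 (3L:13853491-13853903). It was also called after H2O2, with 9 and 2 summits in H2O2 replicates 1 and 2, against 11 and 13 in control replicates 1 and 2. In Hml 1 region was called in all 4 libraries. zfh1 stood at 90.8 and 54.0 (3R:30778018-30778449).

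Of 61 actin and adhesion genes 4 held a region (6.56%, 2.58 to 15.7, and 8.55 per Mb). They were ena, mbc, Rho1 and zip, the non-muscle myosin heavy chain gene. Rho1 stood at percentiles 83.4 and 64.9 of control replicates 1 and 2, and zip at 73.7 and 12.9. Frl was not written in that list. Microtubule genes numbered 2 of 31 (klar and Map205; 3.34 per Mb). Vesicle traffic genes numbered 8 of 106 (7.55%, 3.87 to 14.2; 20.8 per Mb), led by Cip4, the COPII coat gene Sec13 and Rab1. Small GTPase and lipid kinase genes numbered 5 of 43 (11.6%, 5.07 to 24.5; 7.77 per Mb), led by Akap200, Galphaq and Pdk1. Narrow H2O2-only regions lay in 5 actin and adhesion, 2 microtubule, 1 vesicle traffic and 1 small GTPase and lipid kinase genes. The share over all autosomal protein-coding genes was 2.58%, and these counts were not tested against it.

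Of 28 heat shock and chaperone genes only lwr, which encodes a SUMO-conjugating enzyme and no chaperone, held a region (13.1 per Mb). Of 17 apoptosis genes 2 did (11.8%, 3.29 to 34.3; 36.97 per Mb): Drice, an effector caspase gene, with 2 regions and Diap1, a caspase inhibitor gene, with 1. Both Drice regions were weak, at 2.18 and 5.12 (3R:29800162-29800675) and 0.997 and 11.3 (3R:29800793-29801080) in control replicates 1 and 2. Of 79 oxidative phosphorylation genes COX8, COX5A and ND-MLRQ held a region (3.80%; 18.2 per Mb), and of 43 innate immunity genes imd did (4.21 per Mb).

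No narrow control-only region lay in the ion channel or sensory genes listed, and cuticle genes were near all genes in density (5.03 against 4.84 per Mb). Among the lists of this paragraph, only the interval of chemoreceptor and odorant-binding protein genes lay wholly below the 2.28% of all genes. The share of neuronal recognition genes was near that of all genes, and their density was lower (1.48 against 4.84 per Mb). Of 71 ion channel genes 0 held a narrow control-only region (Wilson interval up to 5.13%), while 6 held a narrow H2O2-only one. Of 201 chemoreceptor and odorant-binding protein genes 0 did (up to 1.88%), and 5 held a narrow H2O2-only region. Of all autosomal protein-coding genes 2.58% held a narrow H2O2-only region. Of 119 cuticle protein genes Cpr73D did (0.840%, 0.148 to 4.61; 5.03 per Mb), with 6 for narrow H2O2-only regions. Of 87 neuronal recognition genes, whose median length was 36685 bp, Ten-m and Sema1a did (2.30%, 0.633 to 7.999; 1.48 per Mb), with 13 for narrow H2O2-only regions. Of 55 developmental signalling genes of the Wnt, Hedgehog, Notch, Hippo and TGF-beta pathways only Apc did (1.0 per Mb), with 3 for narrow H2O2-only regions.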

How the data were processed

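P-p38 was measured by ChIP-seq in wild-type S2 cells, with 2 H2O2 and 2 control libraries analysed. The submitters' processing notes name MACS2, Picard and build dm6. Versions, options and the library used as background are not stated there. Each deposited list gives per peak an interval, a score (10 times the -log10 p, in whole numbers), the authors' fold enrichment (a linear ratio over the caller's background), the -log10 of the p-value and q-value, and a summit. The lowest deposited -log10 p was 2.0. Folds were described per library and ranked as percentiles within a list, and were not compared between libraries.

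Peaks on the 6 arms were merged and classed in Python 3.11.15 with pandas 2.3.3, numpy 2.4.6 and scipy 1.17.1, and the class code was tested on simulated data. Genes came from the RefSeq table for Release 6, matched by symbol (746 of 760 list symbols matched). It has no strand, exons or sequence, so either gene end was used, exons, introns and starts were not separated, and the planned promoter motifs were not run. Library shares were compared by exact permutation. Alternatives in threshold, list length, overlap, merging, width, gene windows and left-out libraries were planned, and 2 were added after seeing the data: the region midpoint and a distance from H2O2 peaks. Members and gene lists were chosen with earlier results of these data known. Named genes were the 10 regions with the highest lower percentile, the 10 genes with the most regions (ties by regions per kb), up to 3 genes per list, 2 regions on either side of the width limit, the tightest run, and p38a, p38b and p38c. Other genes with 3 or more regions, and further list members, were named after their values were seen. The result of 1 of the 23 gene lists is not reported here.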

Additional observations from a re-analysis of the deposited data

How the results depend on the processing

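Counts of narrow control-only regions, main value 375, were 27 at q of 1e-05 or less, 212 with a reciprocal overlap of 50%, 159 with summits within 100 bp, and 424 to 2482 when 1 library was left out. The share inside a protein-coding gene, 94.7%, was 81.5% at q of 1e-05 or less, 91.5% with reciprocal overlap, 90.6% with summits within 100 bp and 90.8% to 93.2% with a library left out. The share at gene ends, 27.5%, was 34.6% at a width limit of 1500 bp, 16.5% within 250 bp, 38.7% within 1000 bp, 22.1% by midpoint and 19.98% to 31.7% with a library left out. The share in genes of 20 kb or more, 34.1%, was 22.2% at q of 1e-05 or less, 17.3% for genes of 50 kb or more and 26.6% to 37.1% with a library left out. The share in genes holding 3 or more, 26.1%, was 11.1% at q of 1e-05 or less, 17.5% with lists of equal length, 18.9% with reciprocal overlap, 16.4% with summits within 100 bp, 20.8% after merging across 200 bp and 27.02% to 49.1% with a library left out. Fewer regions leave fewer genes with 3. The median host gene length, 6753 bp, was 5449 bp at a width limit of 1500 bp and 4501.5 to 7413 bp with a library left out.

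Differences between libraries, H2O2 minus control, ran with a library left out from -23.8 to -17.0 points inside genes, from -17.2 to -6.75 at gene ends, from -0.051 to 7.19 in genes of 20 kb or more and from -9.67 to 0.858 in genes with 3 or more peaks. The last turned to 2.11 at q of 1e-05 or less, and the cause was not tested. Of 114 alternative values 84 were counted as unchanged and 30 were not. Among 75 region values 49 stayed within the main value's interval or 1.5 times its count. The 39 library differences were judged by sign alone, whatever their size, and 35 kept it. These include the replicate-block values, which equal the main ones by construction. With the replicate number as a block the differences were the same (-20.4, 3.57, -11.99 and -4.41 points), with an exact sign-flip p of 0.5, the smallest that 2 pairs allow. Over 11865 regions the replicates' deviations correlated at -0.0136 between groups. Regions called in a single group are among these, so the value cannot show whether the libraries were paired. Read depth is unknown, and the absence of a peak in H2O2 cannot be told apart from a peak below the caller's threshold.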

Other observations

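A summit lay in a non-protein-coding gene in 21 of the 375 regions (5.60%). Of these 15 lay in long non-coding RNA genes, 4 in antisense RNA genes and 2 in small nucleolar RNA genes, namely scaRNA:MeU2-G25 inside mask and snoRNA:Psi28S-3405d inside Hrb98DE. lncRNA:CR43334, a 15466 bp gene on 3L, held 3 regions outside any protein-coding gene. All of them were weak, with a lower control percentile of 0.535 to 2.98. lncRNA:Irar, inside InR, held 1 of the InR regions (3R:21594025-21594324). Where a non-coding gene lies inside a protein-coding gene, a region in both cannot be assigned to either of them.

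By arm, 3R held 140 regions (37.3%, Wilson interval 32.6 to 42.3), against 25.5% of the other autosomal regions of 1000 bp or less. 2L held 13.9% against 18.6%, 2R 23.7% against 29.8% and 3L 24.8% against 26%. These shares were not tested. On X, outside the set, 49 regions met the same calls and width.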
